A study of Mus musculus with 42 samples.

Results

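The inflammatory CC chemokines and their receptors were examined in MC38 tumors: the ligands Ccl2, Ccl7, Ccl8, Ccl12, Ccl3, Ccl4 and Ccl5 and the receptors Ccr1 and Ccr2. These 9 genes were taken by name from the 26811 gene identifiers of the count matrix, and all 9 passed the filter on low counts. Ccl5 was selected on its higher counts under IL2RB blockade in these same tumors. Its values between groups that differ in that antibody are therefore a description with no test. The other 8 genes were listed by family, with earlier results of these data known.

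MC38 is a mouse colon carcinoma line, and each library was made from the bulk RNA of a whole tumor, 1 per mouse. The 42 hosts were female F1 offspring of CC075/UncJ and C57BL/6J mice, so all groups shared the same tumor line and host cross. The antibody aPD1 blocks the checkpoint receptor PD-1, aGMCSF neutralizes the myeloid growth factor GM-CSF, and aIL2RB blocks the IL-2 and IL-15 receptor chain carried by NK and T cells. A total of 5 mice received isotype control antibody, 6 received aPD1, 9 received aPD1 + aGMCSF, 11 received aPD1 + aIL2RB, and 11 received aPD1 + aGMCSF + aIL2RB. The blocking antibodies (100 µg aGMCSF, 200 µg aIL2RB) or their isotypes were given repeatedly from engraftment on. A dose of 200 µg aPD1 or its isotype followed once the tumor was established, and tumors were taken 48 h later. No group received a blocking antibody without aPD1, so a blockade by itself was compared within aPD1-treated hosts only. A blockade group differs from isotype by aPD1 and the blockade together.

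CC chemokines are small secreted proteins that steer leukocytes through G protein-coupled receptors. The CCR2 ligands Ccl2, Ccl7 and Ccl12 recruit monocytes from blood into inflamed tissue and tumors, where these cells become macrophages. Mouse Ccl8 is a close relative of these ligands and is known as an agonist of CCR8. Ccl3, Ccl4 and Ccl5 attract monocytes, macrophages and activated T cells, in part through CCR1. Activated macrophages make most of these ligands, and effector CD8 T cells and NK cells also make Ccl3, Ccl4 and Ccl5.

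The family is named for a pair of adjacent cysteines near the amino end of the mature ligand. The 54 coding bases around that pair are shown for the 7 ligands because they are the feature the members share. They were read on GRCm38, run 5′ to 3′ on the coding strand and have the cysteine codons in capitals, and the coordinates of each span an intron.
Ccl2 (chr11:82035737-82036535, + strand): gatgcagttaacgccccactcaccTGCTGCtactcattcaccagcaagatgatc
Ccl7 (chr11:82045856-82046567, + strand): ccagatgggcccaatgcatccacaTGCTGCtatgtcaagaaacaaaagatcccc
Ccl8 (chr11:82115306-82116085, + strand): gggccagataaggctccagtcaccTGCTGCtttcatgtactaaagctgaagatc
Ccl12 (chr11:82101972-82102663, + strand): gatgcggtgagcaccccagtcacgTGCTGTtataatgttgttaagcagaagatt
Ccl3 (chr11:83648628-83649202, - strand): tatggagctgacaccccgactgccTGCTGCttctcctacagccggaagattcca
Ccl4 (chr11:83662738-83663511, + strand): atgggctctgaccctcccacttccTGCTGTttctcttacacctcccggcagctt
Ccl5 (chr11:83529218-83530389, - strand): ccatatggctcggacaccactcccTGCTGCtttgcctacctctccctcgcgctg

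Each ligand's coding sequence held exactly 1 such pair of codons, and the second codon was TGT in Ccl12 and Ccl4 and TGC in the other ligands. The closest coding sequences were Ccl3 and Ccl4 with 67.0% of aligned bases identical, followed by Ccl8 and Ccl12 with 64.8% and Ccl7 and Ccl12 with 63.5%. No stretch of 100 bases, the read length, was shared between any ligand transcripts, and the ligand counts were whole numbers in all 42 tumors. The ligand genes lie on mouse chromosome 11, with Ccl2 (chr11:82035571-82037453), Ccl7 (chr11:82045712-82047525), Ccl12 (chr11:82101845-82103400) and Ccl8 (chr11:82115185-82116799) in a row on the plus strand. Ccl5 (chr11:83525778-83530518), Ccl3 (chr11:83647844-83649355) and Ccl4 (chr11:83662584-83664683) follow farther along. The receptors Ccr1 (chr9:123962124-123968692) and Ccr2 (chr9:124101950-124113557) lie on chromosome 9.

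The receptors differed in how far their reads could be told apart. The Ccr1 counts were whole numbers in all 42 tumors, whereas the Ccr2 counts were not whole in 36 of them, so the counting had divided some Ccr2 reads with another gene. Of the 100-base windows of Ccr2 transcripts, 0.79% also occurred in the transcripts of another gene, and the Ccr2 values carry that uncertainty.

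The 250 bases before the start are shown for the genomic neighbours Ccl8 and Ccl12, whose levels are compared further on, from RefSeq on GRCm38.p6. Of the 9 genes, 5 had a promoter entry (Ccl8, Ccl12, Ccl3, Ccr1 and Ccr2), and the capitals mark the letters TATAAA.
Ccl8 (chr11:82114935-82115184, + strand): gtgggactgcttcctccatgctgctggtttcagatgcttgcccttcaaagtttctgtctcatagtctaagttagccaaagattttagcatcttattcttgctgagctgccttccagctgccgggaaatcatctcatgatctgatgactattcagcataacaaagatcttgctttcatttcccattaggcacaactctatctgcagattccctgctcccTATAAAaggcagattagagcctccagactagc
Ccl12 (chr11:82101595-82101844, + strand): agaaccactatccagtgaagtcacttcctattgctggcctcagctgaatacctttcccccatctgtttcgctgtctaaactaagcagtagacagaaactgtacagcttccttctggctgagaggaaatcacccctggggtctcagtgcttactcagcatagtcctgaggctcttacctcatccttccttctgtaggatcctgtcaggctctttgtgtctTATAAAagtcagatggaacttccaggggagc

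The 5 windows were searched on both strands for TATAAA, for the interferon response letters (GAAA and GAAA with 2 bases between), the STAT letters (TTC and GAA with 3 bases between), the NF-kB letters (GGG and TTCC with 3 bases between) and the AP-1 letters (TGA and TCA with 1 base between). TATAAA was found in Ccl8 at bases -32 to -27 and in Ccl12 at bases -31 to -26 from the start, and overlapped no other match. None of the other letters occurred in the 5 windows. Among 32851 mouse promoters of this length, TATAAA occurred in 12.37%, the interferon response letters in 2.98%, the STAT letters in 7.02%, the NF-kB letters in 4.65% and the AP-1 letters in 6.75%.

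Total expected counts ran from 7155486 to 24101674 per tumor (median 20215383), and the lowest was aPD1 + aGMCSF + aIL2RB replicate 4. All levels are given as counts-per-million (CPM) unless stated. Of the 7 colon epithelium markers checked against the tumor label, 6 were in the file, and their summed level had group medians of only 3.38 to 17.7 CPM. The replicate numbers fall into an earlier set of 22 tumors and a later set of 20, which differed in 25.1% of 16932 tested genes. Neither the labels nor the methods name these sets, and the split follows how tumors parted in earlier work on these data. The earlier set held the lowest numbers: 2 isotype, 3 aPD1, 5 aPD1 + aGMCSF, 6 aPD1 + aIL2RB and 6 tumors with both blockades. Differences between the sets are therefore not independent of how the sets were drawn. A gene was called at an adjusted p under 0.05 in the edgeR test over all 42 tumors. With scaling by library size alone, calls for aPD1 against isotype went from 1045 higher and 430 lower to 769 higher and 1174 lower, and the members kept their direction except Ccl2 between both blockades and aGMCSF, which was near 0 in either case. The calls of Ccl5 and Ccl2 with aGMCSF and of Ccr2 with aIL2RB, each against aPD1, were lost under that scaling.

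**Figure D1:**
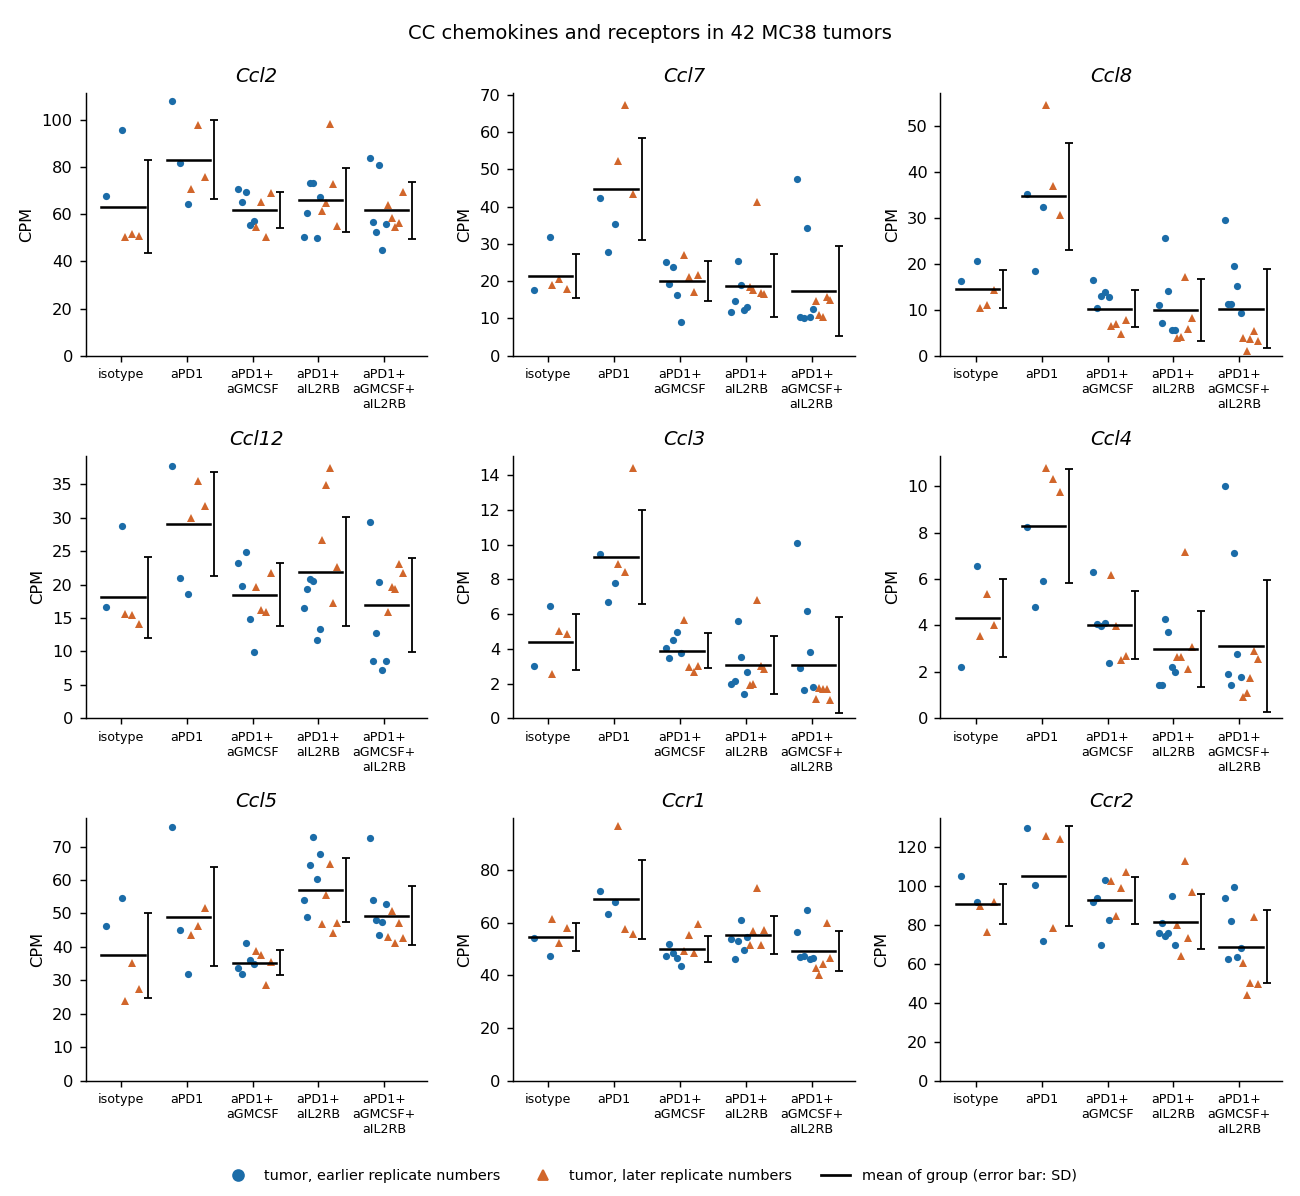
CPM of each of the 9 genes (y axis, linear from 0) in the 42 tumors by treatment group (x axis), with point colour for the earlier or later set and the black bar for the group mean ± SD. Ccl7, Ccl8, Ccl3 and Ccl4 stand highest in the aPD1 group, while Ccl5 is highest on average in aPD1 + aIL2RB.

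Levels between genes were compared as CPM per kilobase of exon. In isotype tumors Ccl2 had the highest mean level at 55.5 ± 17.2 CPM per kilobase (SD, n = 5), followed by Ccl5 at 39.01 ± 13.4 and Ccl12 at 33.7 ± 11.3. Ccl8 (28.5), Ccl7 (26.7), Ccr1 (19.3) and Ccr2 (13.4) came next, and Ccl4 (6.57) and Ccl3 (5.73) were lowest. In aPD1 tumors Ccl8 ranked second at 68.0 ± 22.9 CPM per kilobase (SD, n = 6), next to Ccl2 at 73.0 ± 14.7. In aPD1 + aIL2RB tumors Ccl5 and Ccl2 led with 59.4 ± 10.1 and 58.0 ± 12.0 CPM per kilobase (SD, n = 11), while Ccl8 stood at 19.3 ± 13.2. The ranges of the 2 leading genes overlapped in each of the 3 groups, and in isotype tumors they were 44.2 to 84.2 for Ccl2 and 24.8 to 56.8 CPM per kilobase for Ccl5.

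The first question was which chemokines responded 48 h after checkpoint blockade. All 9 genes had a higher mean in aPD1 than in isotype tumors, and Ccl7 was the only member that passed the test with treatment alone in the model. That is 1 of 9 members, against 6.17% of all tested genes called higher. The median log2 fold change of the members was 0.68, beside -0.00229 over all tested genes. With the set of replicate numbers as a further term, 3 members passed, beside 7.2% of all genes called higher: Ccl8 (1.33, adjusted p = 0.036), Ccl7 (1.06, adjusted p = 0.036) and Ccr1 (0.35, adjusted p = 0.0448).

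Ccl7 recruits monocytes through CCR2 and also binds CCR1. Its level in the isotype tumors was 17.7, 31.8, 19.1, 20.5 and 18.03 CPM, and in aPD1 tumors it ran from 27.9 to 67.4 CPM with a median of 42.8. Of the 6 aPD1 tumors, 5 lay above every isotype tumor. The log2 fold change was 1.06 ± 0.34 (SE, adjusted p = 0.0389, edgeR). The call rested on few tumors: adjusted p was 0.0532 to 0.101 after leaving out isotype replicate 1, 3, 4 or 5 or aPD1 replicate 1, 4, 5 or 6, and the log2 fold change then lay between 0.90 and 1.08. It was also lost with a filter on a total of at least 5 counts (0.0519).

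Ccl8, the mouse CCR8 agonist, had the largest estimate. Isotype tumors held 16.3, 20.6, 10.4, 11.1 and 14.4 CPM, and aPD1 tumors 18.5 to 54.6 CPM with a median of 33.8. All aPD1 tumors but 1 lay above all isotype tumors, and the log2 difference of 1.25 ± 0.49 had an adjusted p of 0.101 (0.00744 when only these 2 groups were fitted). Ccl3, a CCR1 ligand made by activated macrophages and T cells, was at 3.02, 6.48, 2.57, 5.02 and 4.86 CPM in isotype tumors and at 6.72 to 14.4 CPM (median 8.67) in aPD1 tumors. These groups did not overlap for Ccl3, and its log2 difference was 1.08 ± 0.42 (adjusted p = 0.0966, or 0.019 when only these groups were fitted). Ccl4, its close relative, had a log2 difference of 0.93 ± 0.43 (adjusted p = 0.174).

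The remaining estimates were smaller. Ccl12, the mouse CCR2 ligand next to Ccl8, differed by 0.68 ± 0.29 on the log2 scale (adjusted p = 0.14), Ccl2 by 0.39 ± 0.16 (0.124) and Ccl5 by 0.39 ± 0.17 (0.148). Isotype replicate 2 held the highest isotype level of each ligand, and without it Ccl2 (0.59, adjusted p = 0.0218) and Ccl5 (0.56, adjusted p = 0.0411) passed the test as well. Ccr1 differed by 0.34 ± 0.12 (adjusted p = 0.058), and passed without aPD1 replicate 2, 5 or 6 (adjusted p from 0.0402 to 0.0472) and with DESeq2 (0.0355). Ccr2 differed by 0.21 ± 0.17 (adjusted p = 0.465).

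Markers of other cells moved in the same comparison. All 7 of 7 macrophage markers rose, and their summed level ran from 1364 to 1594 CPM in isotype and from 1640 to 2894 CPM in aPD1 tumors. Of 6 monocyte markers 3 rose, as did Ptprc, the general leukocyte marker (0.97 ± 0.25, adjusted p = 0.013, edgeR). All 4 skeletal muscle markers rose too, with a summed level of 0.233 to 20.4 CPM in isotype and 0.602 to 579 CPM in aPD1 tumors. All 6 CD8 T cell and all 6 NK cell markers had estimates above 0 (median log2 fold changes 1.07 and 0.71), but 0 of each list were called. The CD8 T cell sum was 24.4 to 45.1 CPM in isotype and 53.3 to 108 CPM in aPD1 tumors. For NK cells it was 11.3 to 16.1 CPM and 10.5 to 30.6 CPM. Of 6 fibroblast markers 2 rose and 1 fell, and of 5 tested neutrophil markers 1 rose. Of 6 dendritic cell and 4 B cell markers 0 were called. The part of these cells in the chemokine levels was not tested, and in bulk RNA more cells of a type cannot be told apart from more RNA per cell.

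**Figure D2:**
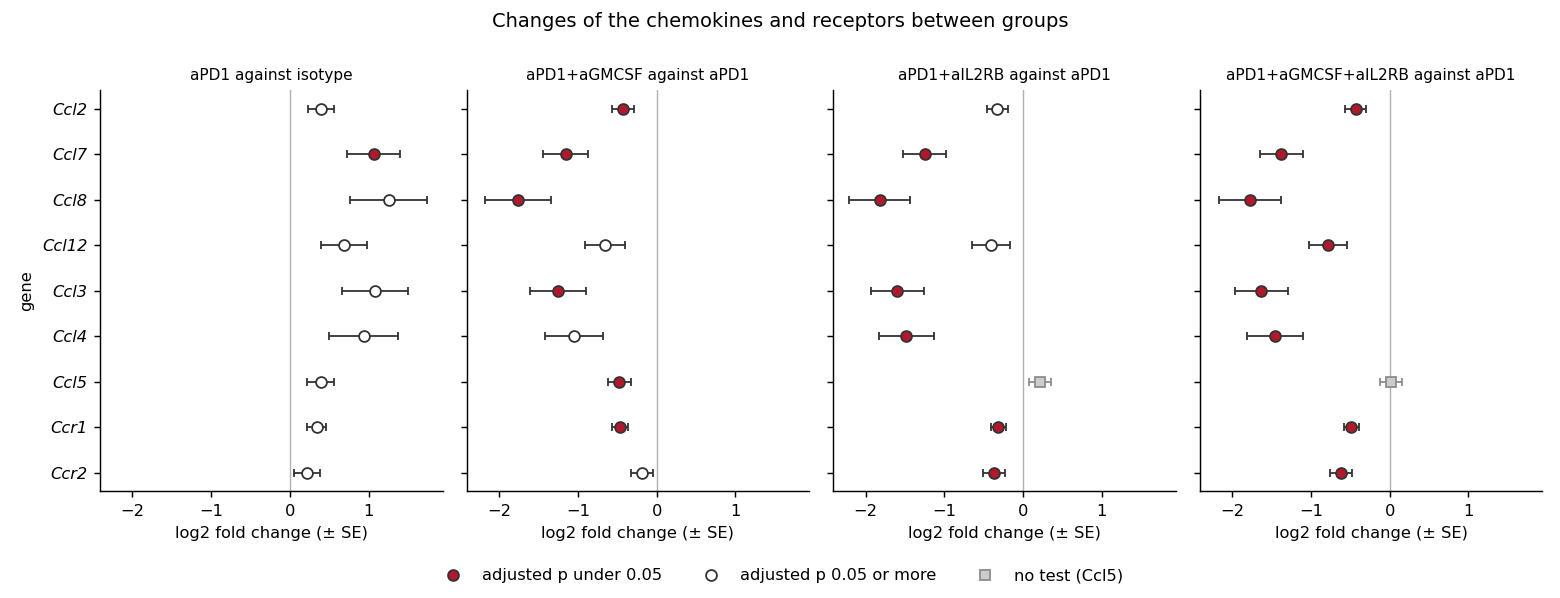
Log2 fold change ± SE (x axis) of the 9 genes (y axis) for aPD1 against isotype and for each blockade against aPD1, over all 42 tumors. Red points were called at an adjusted p under 0.05, open points were not, and grey squares are Ccl5 values given without a test; called points are to the left of 0 in all 3 blockade panels.

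The second question was how each blockade altered these genes in aPD1-treated hosts. Every blockade group had lower Ccl7, Ccl8 and Ccl3 than aPD1 alone, and the estimates of Ccl2, Ccl12, Ccl4 and both receptors were below 0 as well. Ccl5 fell with aGMCSF, and in the IL2RB-blocked groups, where it was not tested, its mean was not lower. With aPD1 + aGMCSF 6 of 9 members fell, against 8.75% of all tested genes called lower. With aPD1 + aIL2RB 6 of the 8 tested members fell (14.5% of all tested genes), and with both blockades all 8 tested members fell (14.3%). The median log2 fold change of the tested members was -0.66, -0.83 and -1.08 in that order, beside 0.00664, 0.00356 and 0.0107 over all genes. These 3 comparisons share the 6 aPD1 tumors.

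Ccl8 had the lowest estimate of the members in each comparison. Its levels were 4.76 to 16.5 CPM (median 10.4) in aPD1 + aGMCSF, 3.95 to 25.8 CPM (median 7.13) in aPD1 + aIL2RB, and 1.03 to 29.6 CPM (median 9.39) in aPD1 + aGMCSF + aIL2RB. All 9 aPD1 + aGMCSF tumors lay below every aPD1 tumor, as did 10 of 11 and 9 of 11 tumors of the other groups. The log2 fold change was -1.76 ± 0.42 (SE, adjusted p = 0.00349) with aGMCSF, -1.82 ± 0.39 (adjusted p = 0.000401) with aIL2RB and -1.78 ± 0.39 (adjusted p = 0.000622) with both.

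Ccl7 behaved in a similar way, with 9.00 to 26.97 CPM (median 21.2) in aPD1 + aGMCSF, 11.9 to 41.4 CPM (median 16.9) in aPD1 + aIL2RB and 10.1 to 47.3 CPM (median 12.5) with both. Again all 9 aPD1 + aGMCSF tumors were below every aPD1 tumor. The log2 fold changes were -1.16 ± 0.28 (adjusted p = 0.0049), -1.25 ± 0.27 (adjusted p = 0.000416) and -1.38 ± 0.27 (adjusted p = 0.000156).

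Ccl2, the archetypal monocyte attractant, changed less. It held 50.1 to 70.6 CPM (median 65.1) in aPD1 + aGMCSF, 49.7 to 98.1 CPM (median 64.7) in aPD1 + aIL2RB and 44.8 to 83.8 CPM (median 56.8) with both, against 64.2 to 108 CPM (median 78.7) in aPD1. The ranges overlapped in each comparison. It fell with aGMCSF (-0.43 ± 0.14, adjusted p = 0.0354) and with both (-0.43 ± 0.13, adjusted p = 0.0125), and the value with aIL2RB was -0.33 ± 0.13 (adjusted p = 0.0615). The aGMCSF call was lost without aPD1 replicate 1 (0.128) or 5 (0.0996) and with scaling by library size alone (0.0726), the call with both was lost without aPD1 replicate 1 (0.0632), and Ccl2 passed with aIL2RB without aPD1 replicate 3 (0.0319) and with DESeq2 (0.0449).

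Ccl12 fell with both blockades (-0.78 ± 0.24, adjusted p = 0.0119). Its estimates were -0.66 ± 0.25 with aGMCSF (adjusted p = 0.0739) and -0.41 ± 0.24 with aIL2RB (adjusted p = 0.217), and the former passed without aPD1 replicate 2 (0.0464) or 3 (0.0438) and when only the groups compared were fitted (0.0183). Its level in aPD1 + aIL2RB ran from 11.7 to 37.4 CPM (median 20.5), across nearly the whole range of aPD1 tumors, 18.6 to 37.8 CPM (median 30.9). With aIL2RB, Ccl12 and its neighbour Ccl8 thus had estimates of -0.41 and -1.82, and the difference between the genes was not tested.

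Among the other ligands, Ccl3 and Ccl4 had the lowest levels under IL2RB blockade. Ccl3 was at 2.65 to 5.64 CPM (median 3.76) in aPD1 + aGMCSF, 1.37 to 6.83 CPM (median 2.64) in aPD1 + aIL2RB and 1.04 to 10.1 CPM (median 1.75) with both. Its log2 fold change was -1.25 ± 0.35 (adjusted p = 0.0132), -1.60 ± 0.34 (adjusted p = 0.000311) and -1.63 ± 0.34 (adjusted p = 0.0003), and every aPD1 + aGMCSF tumor lay below every aPD1 tumor. The aGMCSF call was lost without aPD1 replicate 6 (adjusted p = 0.053), the aPD1 tumor with the most Ccl3.

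Ccl4 fell with aIL2RB (-1.48 ± 0.35, adjusted p = 0.0012) and with both (-1.46 ± 0.35, adjusted p = 0.00169). Its levels were 1.44 to 7.16 CPM (median 2.62) and 0.899 to 10.0 CPM (median 1.90), against 4.80 to 10.8 CPM (median 9.00) in aPD1. With aGMCSF its value was -1.05 ± 0.37 (adjusted p = 0.0505), which lay close to the threshold. It passed in 9 of 16 alternatives, among them DESeq2 (0.0342), set as a term (0.0443), RLE size factors (0.0491) and the fit of only the groups compared (0.00395), and adjusted p over the 16 ran from 0.00395 to 0.66.

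Of the receptors, Ccr1 fell in all 3 comparisons. Its levels were 43.7 to 59.6 CPM (median 48.6) with aGMCSF, 46.2 to 73.2 CPM (median 53.9) with aIL2RB and 39.98 to 64.9 CPM (median 46.8) with both, against 55.7 to 96.9 CPM (median 65.7) in aPD1. The log2 fold changes were -0.46 ± 0.10 (adjusted p = 0.00163), -0.32 ± 0.10 (adjusted p = 0.0102) and -0.49 ± 0.10 (adjusted p = 0.000139). Without aPD1 replicate 4, the aIL2RB call was lost (-0.19, adjusted p = 0.123). In the later set alone the calls with aGMCSF (-0.42, adjusted p = 0.0843) and aIL2RB (-0.29, adjusted p = 0.193) were lost.

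Ccr2, the receptor of classical monocytes, ran from 71.8 to 130 CPM in aPD1 (median 112), 69.7 to 107 CPM in aPD1 + aGMCSF (median 93.6), 63.8 to 112 CPM in aPD1 + aIL2RB (median 75.9) and 44.0 to 99.4 CPM with both (median 63.6). It fell with aIL2RB (-0.37 ± 0.14, adjusted p = 0.0433) and with both (-0.62 ± 0.14, adjusted p = 0.000713), and the aIL2RB call was lost without aPD1 replicate 1, 4 or 6 (adjusted p from 0.123 to 0.136), with scaling by library size alone (0.0943) and in either set alone (0.123 and 0.157). With aGMCSF the estimate was -0.18 ± 0.14 (adjusted p = 0.444).

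The macrophage markers moved in the same direction here too: 7 of 7 fell with aGMCSF, and 6 of 7 with aIL2RB and with both. Their summed level was 1264 to 1530 CPM, 1136 to 1450 CPM and 953 to 2028 CPM in these groups. The summed level of 5 monocyte markers, from which Fn1 was left out after its values were seen because it made up most of the sum, had a median of 125 CPM in aPD1 and 46.9, 39.7 and 40.7 CPM in the blockade groups. With Fn1 the sum went the other way, with a mean of 1439 CPM in aPD1 and of 1860, 2462 and 2524 CPM in the blockade groups. Of the 6 monocyte markers 3 fell in each comparison (Ly6c2, Plac8 and Ms4a4c), and Fn1, which encodes fibronectin and is also made by fibroblasts, rose. Ptprc, the general leukocyte marker, fell by 0.81, 1.29 and 0.98 on the log2 scale (adjusted p = 0.00797, 5.2e-06 and 0.000278, edgeR). Markers of lymphocytes, among them the CD8 T cells and NK cells that also make Ccl3 and Ccl4, were lower too. Of 6 CD8 T cell markers 3 fell with aGMCSF (Cd8b1, Trac and Gzmk, median of the list -1.28 on the log2 scale), and 6 fell with aIL2RB (-3.31) and with both (-2.54). Of 6 NK cell markers 1 fell with aGMCSF (-0.99), and 6 fell with aIL2RB (-4.62) and with both (-4.42). Of 5 tested neutrophil markers 3 fell and 1 rose with aGMCSF. Skeletal muscle markers fell with aIL2RB, 4 of 4, and 1 of 4 fell with both. Of 6 dendritic cell markers 1 rose with aGMCSF, 2 rose and 1 fell with aIL2RB, and 1 rose and 1 fell with both. Of 6 fibroblast markers 1 rose and 1 fell with aGMCSF. Of 5 tested colon epithelium markers 0, 1 and 2 fell in the 3 comparisons (medians -1.08, -0.99 and -1.96). The part of these shifts in the chemokine values was not tested.

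Against isotype, none of the tested members was called in any blockade group. Adjusted p ran from 0.906 to 0.995 for aPD1 + aGMCSF (0 of 9 members, 0.0% of all genes called), from 0.462 to 0.943 for aPD1 + aIL2RB (0 of 8, 3.2%) and from 0.0685 to 0.884 for aPD1 + aGMCSF + aIL2RB (0 of 8, 10.2%). At an unadjusted p under 0.05 these counts were 0, 0 and 1, beside 5.54%, 18.1% and 26.7% of all genes. DESeq2 called 0 in each, beside 0.0188%, 2.81% and 7.89% of the 26651 genes it fitted. Any gene it left without an adjusted p stays in that number, so its shares are not directly comparable with the edgeR shares. In aPD1 + aGMCSF against isotype, where edgeR called 0 of all genes, 938 had an unadjusted p under 0.05 and DESeq2 called 5. The later set alone gave other counts: Ccl12 was higher in aPD1 + aIL2RB (0.88, adjusted p = 0.0164, 1 of 8 members, 0.845% of all genes called higher). With both blockades Ccl8 (-1.82), Ccl3 (-1.51), Ccl4 (-1.23) and Ccr2 (-0.58) were lower than in isotype in that set (adjusted p from 0.00491 to 0.0489, 4 of 8 members, 6.44% of all genes called lower).

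Between the blockade groups no tested member was called either: 0 of 8 for aPD1 + aIL2RB against aPD1 + aGMCSF (adjusted p from 0.495 to 0.970, 1.52% of genes called), 0 of 8 for both against aGMCSF (0.0522 to 0.985, 2.13%) and 0 of 9 for both against aIL2RB (0.688 to 0.992, 0.00591%). Unadjusted p under 0.05 was reached by 0, 1 and 2 members, beside 13.5%, 17.3% and 7.16% of all genes, and DESeq2 called 0, 1 and 0, beside 1.49%, 2.24% and 0.00375%. In the later set alone Ccl3 (-1.28) and Ccr2 (-0.77) were lower with both than with aGMCSF (adjusted p = 0.0291 and 0.00911, 2 of 8 members, 4.85% of all genes called lower). The gene nearest to a call was Ccr2 with both blockades against aGMCSF, which DESeq2 called (-0.43, adjusted p = 0.0235), and which edgeR called without the shallow replicate 4 (-0.50, adjusted p = 0.0208), a fit added after seeing the data. Without that tumor Ccr2 also passed against isotype (-0.47, adjusted p = 0.0279), 1 of 8 members. In that fit 832 of all 16932 genes were called lower than in isotype, and 202 lower than with aGMCSF.

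A term for the interaction asked whether aGMCSF acted differently in the presence of aIL2RB. It was called for Ccl8 (1.80 ± 0.54, adjusted p = 0.0327), 1 of 8 tested members, with 8.34% of all genes called. Ccl8 was 1.76 lower on the log2 scale with aGMCSF than with aPD1 alone, but 0.04 higher with aGMCSF + aIL2RB than with aIL2RB. The latter value was 0.47 in the earlier and -1.2 in the later set (adjusted p of the difference 0.0768, edgeR). The former was -1.11 in the earlier and -2.67 in the later set. The Ccl8 interaction was 1.57 in the earlier and 1.47 in the later set alone, and was called in neither. The estimates of Ccl3 (1.22 ± 0.47, adjusted p = 0.093) and Ccl7 (1.03 ± 0.37, adjusted p = 0.077) had the same sign. The Ccl8 call was lost without aPD1 replicate 4 (1.63, adjusted p = 0.0832), the aPD1 tumor with the most Ccl8, and Ccl7 passed without aPD1 replicate 2 (adjusted p = 0.046).

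Ccl5 took another course. It is made by activated CD8 T cells and NK cells, as well as by macrophages and interferon-stimulated tumor cells. Its level was 46.3, 54.5, 23.8, 35.1 and 27.5 CPM in isotype tumors, 31.96 to 75.9 CPM (median 45.7) in aPD1, 28.5 to 41.1 CPM (median 35.5) in aPD1 + aGMCSF, 44.3 to 72.8 CPM (median 55.5) in aPD1 + aIL2RB and 41.2 to 72.6 CPM (median 47.3) with both. The order of the means was aPD1 + aIL2RB (57.0 ± 9.65, SD, n = 11), both (49.4 ± 8.75, n = 11), aPD1 (49.1 ± 14.7, n = 6), isotype (37.4 ± 12.8, n = 5) and aPD1 + aGMCSF (35.4 ± 3.77, n = 9). Neighbours in this order overlapped, while all tumors of both IL2RB-blocked groups lay above all 9 aPD1 + aGMCSF tumors.

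Where Ccl5 had not been chosen on the difference, it was tested. It fell with aGMCSF against aPD1 (-0.47 ± 0.15, adjusted p = 0.0254), and this call was lost without aPD1 replicate 1 (-0.31, adjusted p = 0.164) or 6 (-0.46, adjusted p = 0.0543), with scaling by library size alone (-0.41, adjusted p = 0.0531) and in the earlier set alone (-0.51, adjusted p = 0.225). The difference between both blockades and aIL2RB alone was -0.20 ± 0.12 (adjusted p = 0.73). The described log2 differences, without a test, were 0.22 ± 0.14 for aPD1 + aIL2RB and 0.01 ± 0.14 for both against aPD1, and 0.60 ± 0.15 and 0.40 ± 0.15 against isotype. They differed by set: against isotype aPD1 + aIL2RB was at 0.28 in the earlier and 0.83 in the later set, and both at 0.08 and 0.64. Against aPD1 these values were 0.27 and 0.12 for aPD1 + aIL2RB and 0.06 and -0.08 for both, so the sign of the last one changed between the sets. Of the 11 aPD1 + aIL2RB tumors, 10 exceeded the aPD1 median and 6 exceeded every isotype tumor.

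The markers of the lymphocytes that make Ccl5 had another order. The 6 CD8 T cell markers summed to 36.5 ± 8.07 CPM in isotype (SD, n = 5), 76.9 ± 23.7 in aPD1 (n = 6), 33.1 ± 11.9 in aPD1 + aGMCSF (n = 9), 7.76 ± 5.66 in aPD1 + aIL2RB (n = 11) and 13.1 ± 16.4 with both (n = 11). The 6 NK cell markers summed to 13.5 ± 1.76, 21.6 ± 8.22, 11.1 ± 2.16, 2.33 ± 0.693 and 2.23 ± 1.4 CPM in the same order, and Ncr1, an activating NK receptor, was at 0 in all aPD1 + aIL2RB tumors. All 6 markers of each list fell in both IL2RB-blocked groups against aPD1. Il2rb itself, the target of the antibody, had a median of 38.04 CPM in aPD1 and of 3.08 and 2.99 CPM in the IL2RB-blocked groups. Part of the fibroblast markers were higher in the same groups. The 6 fibroblast markers summed to a mean of 3817 CPM in aPD1, 5451 in aPD1 + aIL2RB and 5495 CPM with both, with Col3a1 the most abundant. Of them 3 (Col3a1, Dcn and Pdgfra) rose in each IL2RB-blocked group against aPD1, while 3 fell with aIL2RB and 0 with both. Of the neutrophil markers the protease gene Mmp9 rose (0.97 ± 0.18 and 0.91 ± 0.18), and it made up most of their sum, with a median of 341 CPM over all tumors beside 11.2 CPM for Csf3r. The other 4 tested neutrophil markers had estimates below 0 in both comparisons, and of these 1 fell with aIL2RB (Csf3r) and 2 with both (Csf3r and Cxcr2). The part of these cells in the Ccl5 level, and which cells held its transcripts, was not tested.

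**Figure D3:**
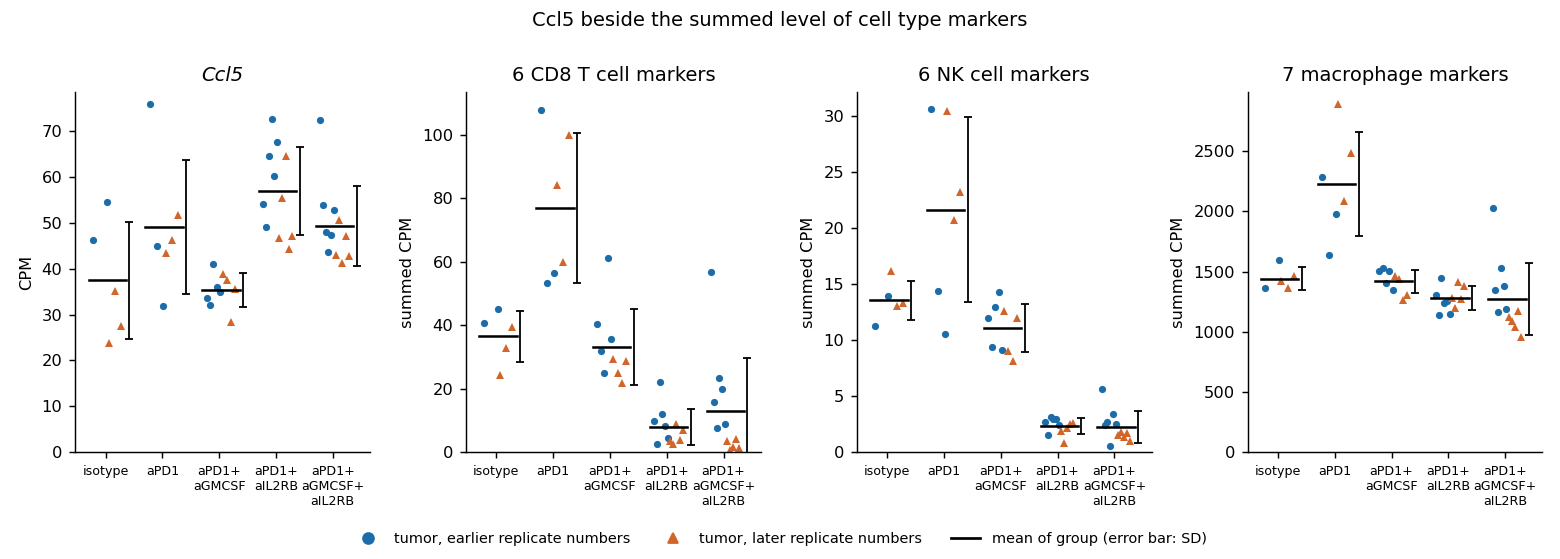
Ccl5 CPM and the summed CPM of cell type marker lists (y axes, linear from 0) in each tumor by treatment group (x axis), with point colour for set and bars for the mean ± SD (a bar that would pass below 0 ends at the axis). Ccl5 stays at 41.2 CPM or more in all IL2RB-blocked tumors, while the mean CD8 T cell sum drops from 76.9 CPM in aPD1 to 7.76 CPM in aPD1 + aIL2RB.

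Within the IL2RB-blocked groups a few tumors kept high chemokine levels. Replicates 3 and 9 of aPD1 + aIL2RB and replicates 1 and 4 of aPD1 + aGMCSF + aIL2RB were the highest of their groups for Ccl7, Ccl8, Ccl3 and Ccl4. Their Ccl8 levels were 25.8, 17.1, 29.6 and 19.5 CPM. The same tumors held the 2 highest summed macrophage marker levels of their groups, at 1450, 1410, 2028 and 1526 CPM against group medians of 1273 and 1169 CPM. Their Ptprc levels were also the 2 highest, at 187.5, 165.7, 367.8 and 223.7 CPM against medians of 120.2 and 129.7 CPM. Their summed CD8 T cell markers were 22, 8.87, 56.7 and 23.3 CPM, against medians of 7.07 and 7.55 CPM, and replicates 1 and 4 of aPD1 + aIL2RB lay above the 8.87 CPM of replicate 9. Their Il2rb levels were 11.3, 5.03, 19.2 and 13.2 CPM, against medians of 3.08 and 2.99 CPM. Replicate 4 of aPD1 + aIL2RB lay above replicate 9, at 6.99 CPM. Replicate 4 with both blockades was the shallowest library, with 7155486 total counts. The summed NK cell markers of the high tumors were 3.16, 2.18, 5.66 and 0.527 CPM, against medians of 2.49 and 1.80 CPM. These tumors were named after their values were seen, and the relation was not tested.

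The comparison of both blockades with aPD1 differed between the sets of replicate numbers. In the later set Ccl8 was 30.7 to 54.6 CPM in the 3 aPD1 tumors and 1.03 to 5.40 CPM in the 5 tumors with both blockades. In the earlier set the values were 18.5 to 35.3 CPM in 3 aPD1 tumors and 9.39 to 29.6 CPM in 6 tumors, so only the later groups stood fully apart. The log2 fold change was -0.86 in the earlier and -3.60 in the later set, a difference of -2.73 ± 0.60 (adjusted p = 0.00389).

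Ccl3 showed the same, with -0.88 in the earlier and -2.87 in the later set (difference -1.98 ± 0.62, adjusted p = 0.0363). These were the 2 of 8 tested members called for a difference between sets, with 9.18% of all genes called. Ccl4 (-0.64 and -2.49, adjusted p of the difference 0.0864) and Ccl7 (-0.79 and -2.03, 0.14) had the same order. Ccl2 (-0.45 and -0.44), Ccl12 (-0.86 and -0.71) and Ccr1 (-0.41 and -0.60) were closer in both sets. Ccr2 was -0.37 in the earlier and -0.94 in the later set, a difference of -0.56 ± 0.26 (adjusted p = 0.183). The earlier set alone called 1 of 8 members (Ccr1) lower in this comparison, beside 2.58% of all genes, and the later set called all 8 (16.4%). With aGMCSF the earlier set alone called 1 of 9 members lower (Ccr1, 0.0827% of all genes) and the later set 7 (10.8%). With aIL2RB the earlier set called 3 of 8 lower (Ccl8, Ccl3 and Ccr1, 9.33%) and the later set 4 (13%).

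Cell type markers differed between the sets as well. With both blockades the summed CD8 T cell markers were 7.55 to 56.7 CPM in the earlier and 0.719 to 4.00 CPM in the later set, and mean Il2rb was 8.24 and 0.876 CPM. The macrophage sum was 1165 to 2028 CPM earlier and 953 to 1169 CPM later in that group, but 1640 to 2285 CPM and 2085 to 2894 CPM in aPD1. Averaged over the groups, 5 of 6 CD8 T cell markers were lower in the later set (edgeR). In the same comparison 4 of 5 tested colon epithelium markers (median log2 difference 4.09) and 3 of 3 adipocyte markers (1.94) were higher. The part of these markers in the set difference of Ccl8 and Ccl3 was not tested.

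**Figure D4:**
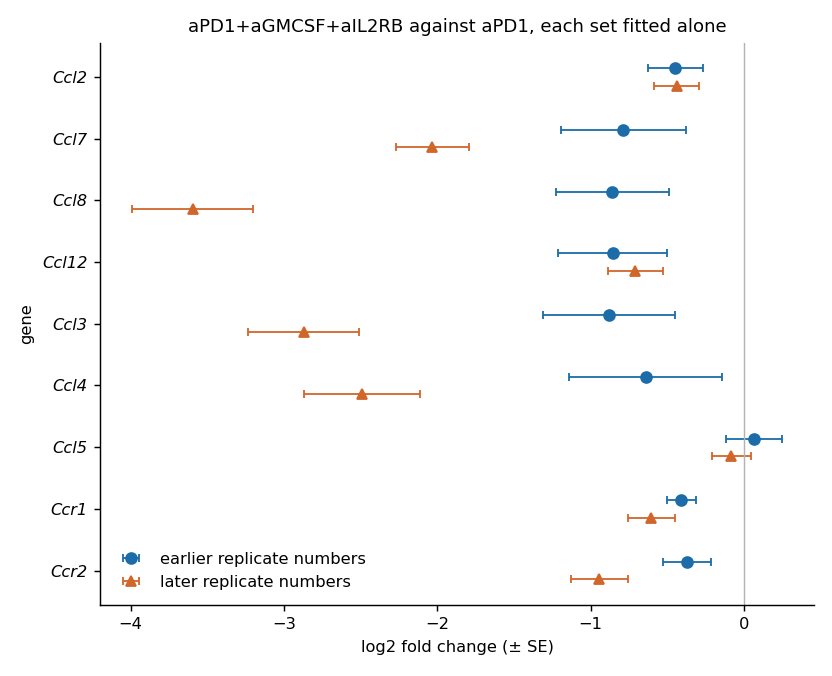
Log2 fold change ± SE (x axis) of each gene (y axis) for aPD1 + aGMCSF + aIL2RB against aPD1, fitted within the earlier and the later replicate numbers. Ccl8 and Ccl3 lie at -0.86 and -0.88 in the earlier set and at -3.60 and -2.87 in the later set, whereas Ccl2 and Ccl12 nearly coincide.

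For aPD1 against isotype, the later set alone called 6 of 9 members higher (Ccl8 1.78, Ccl3 1.36, Ccl12 1.12, Ccl7, Ccl5 0.72 and Ccl2 0.69), beside 9.19% of all genes. The earlier set, with only 2 isotype tumors, called 0 of 9, beside 0.00591% of all genes. The lowest adjusted p for a difference between the sets in this comparison was 0.387, for Ccl5. Averaged over the groups Ccl8 was lower in the later set (-0.88 ± 0.23, adjusted p = 0.00384), as was Ccl5 (-0.24 ± 0.08, adjusted p = 0.0188), 2 of 9 members against 25.1% of all genes. The aPD1 group had the other order for Ccl8, with a mean of 28.7 CPM in the earlier and 40.7 CPM in the later set.

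The other CC ligands were read from a list of 17, of which 7 passed the filter. In aPD1 against isotype 2 rose and 0 fell, and these were Ccl9 (1.07 ± 0.24, adjusted p = 0.00558) and Ccl6 (1.17 ± 0.36, adjusted p = 0.0356), both myeloid CCR1 ligands. Against aPD1, 3 fell and 0 rose with aGMCSF, 4 fell and 1 rose with aIL2RB, and 3 fell and 1 rose with both. Ccl22, a CCR4 ligand of dendritic cells and macrophages, fell by 1.78, 1.62 and 2.72 on the log2 scale in these comparisons. Ccl9 fell by 1.25, 1.22 and 1.19, and Ccl6 by 1.41, 1.27 and 1.41. Ccl28, an epithelial CCR10 ligand, rose with aIL2RB (0.92 ± 0.29, adjusted p = 0.0155) and with both (1.00 ± 0.30, adjusted p = 0.00906).

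Of 12 other CC and atypical receptors 9 were tested. In aPD1 against isotype edgeR called 0 of them. Unadjusted p was under 0.05 for 2 of the 9 (Ccr7 and Ccrl2), beside 4074 of all 16932 genes. With aGMCSF 3 fell: Ackr4 (-2.17 ± 0.72), Ccr7 (-1.39 ± 0.35) and Ccrl2 (-0.97 ± 0.26). With aIL2RB 4 fell, among them Ccr8 (-1.93 ± 0.56), a receptor of tumor regulatory T cells, Ccr9 (-1.03 ± 0.40) and Ccrl2 (-0.95 ± 0.25). With both 3 fell, and these were Ccr8 (-2.91 ± 0.60), Ccrl2 (-0.94 ± 0.25) and Ccr7 (-1.18 ± 0.33), which guides dendritic cells and naive T cells. None of the 9 rose against aPD1 in these 3 comparisons.

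Transcription factors and feedback genes that act at inducible chemokine genes formed a list of 16, all tested. In aPD1 5 rose and 0 fell, with Irf7 (1.94 ± 0.29, adjusted p = 0.000156), Irf8 (0.84 ± 0.21) and Stat2 (0.79 ± 0.20) the largest. Against aPD1, 6 fell and 1 rose with aGMCSF, 10 fell with aIL2RB and 8 fell with both. Irf7, a master factor of the interferon response, fell by 1.53, 1.41 and 1.10 on the log2 scale, and Irf8, a factor of the monocyte and dendritic cell lineages, by 0.72, 0.91 and 1.03. The NF-kB gene Nfkb2 was the gene that rose with aGMCSF (0.15 ± 0.05, adjusted p = 0.0489).

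The members were last compared with each other across the 42 tumors, as a description, since all values come from the same libraries. After the mean of each group and set was removed, Pearson's r of log2 CPM was 0.85 between Ccl7 and Ccl4, 0.83 between Ccl7 and Ccl12, 0.78 between Ccl2 and Ccl7 and 0.78 between Ccl3 and Ccl4. Ccl8 and Ccl12, though neighbours in the genome, had r of 0.44. For Ccl5 r ran from 0.13 (Ccr1) to 0.55 (Ccl2), and from -0.04 to 0.45 before the means were removed. For Ccr2 it ran from 0.19 (Ccl2) to 0.54 (Ccr1).

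The genes most like each member over the 42 tumors were found by the same measure. They were Lrch1 (0.77), Sp110 (0.75) and Parp9 (0.73) for Ccl5. For Ccl8 they were Anpep (0.85), Slc37a2 (0.85) and Slc11a1 (0.85), for Ccl7 Ch25h (0.89), Basp1 (0.89) and Slc7a8 (0.88), and for Ccl3 Cd53 (0.83), Slamf7 (0.82) and Arl6ip1 (0.81). Ccl2 was most like the neutrophil attractant Cxcl1 (0.79), Ccl4 like Acod1 (0.87), Ccl12 like Ch25h (0.81), Ccr1 like the scavenger receptor Msr1 (0.76) and Ccr2 like Nup210 (0.84).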

How the data were processed

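RNA of 42 tumors had been prepared as poly(A) libraries and read as 100-base paired ends. Per the labels and the study's methods, reads were aligned with Bowtie 1.2.3 to transcriptomes of the founder strains (GRCm38), and EMASE in the gbrs pipeline divided reads that fit several genes or alleles. The deposited matrix holds the authors' expected counts, not normalized, with 15.2% of values not whole. No column was left unused (0). Of 26811 identifiers, 26629 matched a GENCODE symbol.

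Counts were rounded and tested with the quasi-likelihood test of edgeR 4.0.16 in R 4.3.3, with TMM scaling and filterByExpr (minimum count 10, minimum total 15), which left 16932 genes. The fit used treatment only over all 42 tumors, since the shared spread serves small groups, with Benjamini-Hochberg adjustment per comparison. DESeq2 1.42.0, the study's own tool, was an alternative. SE is the log2 fold change divided by the root of F. CPM values used TMM-scaled library sizes, and log2 CPM a prior count of 2. The test was also run on simulated counts with known changes, which does not bear on the calls in these tumors. Tumors were grouped by their labels, which number biological replicates.

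The members, gene lists, sets and tests were chosen with earlier results of these data known. All members are described. From the lists, up to 3 called genes per direction with the largest log2 fold change are named in the comparisons described. Genes like a member are the 3 with the highest r at a mean log2 CPM of at least 1, of which the first or all are named. Alternatives covered scaling, filters, set, replicate block, DESeq2, the groups compared alone and each isotype or aPD1 tumor left out. The fit without the shallowest tumor was chosen after seeing the data. A few listed genes are not reported here; their rows stayed in the fits.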

Additional observations from a re-analysis of the deposited data

Results flagged for a closer look

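In isotype replicate 2, Ccl7 was 31.8 CPM and Ccl12 was 28.9 CPM, each far above the other 4 isotype tumors. In aPD1 replicate 6, Ccl3 was 14.4 CPM, far above the other 5 aPD1 tumors. Groups of 4 to 10 tumors were checked for such a gap in 27 cases with 3 marked, and chance marks about 1 in 20. The change of Ccl3 with both blockades against aPD1 differed between the later and earlier replicate numbers by -1.98 on the log2 scale, and that of Ccl8 by -2.73, out of 84 differences between sets that were tested. The aGMCSF effect on Ccl8 differed with and without aIL2RB by 1.80 on the log2 scale.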

How the results depend on the processing

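Alternatives changed how many members were called more than their direction, and no called member reversed. For aPD1 against isotype, where edgeR called 1 member, the count was 0 with a filter on a total of at least 5 counts, 2 with at least 10 counts in every tumor, 3 with set as a term, 0 in the earlier set, 6 in the later set, 3 with only the groups compared, 2 with DESeq2, and 0 to 3 with a tumor left out. Over all genes 864 of 26110 were called higher with the first of these filters, 1151 of 12497 with the second, 988 of 16932 with only the groups compared, 1309 of 26651 with DESeq2 and 511 to 1382 of 16932 with a tumor left out, beside 1045 of 16932 in the edgeR test. In the earlier set alone the counts were 1 for aGMCSF against aPD1 (6 in all tumors), 3 for aIL2RB against aPD1 (6) and 1 for both against aPD1 (8). Later-set counts were 1 for aIL2RB, 4 for both against isotype and 2 for both against aGMCSF, where no member was called in all tumors. Without replicate 4 of the group with both blockades the count was 1 against isotype and 1 against aGMCSF, and the latter was also 1 with DESeq2, with set as a term and with at least 10 counts in every tumor. Over all genes 832 and 202 of 16932 were called lower without replicate 4. Against aGMCSF 310 of 26651 were called lower with DESeq2, 372 of 16932 with set as a term and 156 of 12497 with that filter. The interaction count of 1 became 0 in either set and 0 to 2 with a tumor left out. The cause of these shifts was not tested. Same-numbered tumors deviated together at most weakly. Of 67 pairs 16 had r over 0.1 (range -0.168 to 0.193), and 14 tumors were closest to their own number. Only group means were removed, and same-numbered tumors can lie in different sets. The check therefore cannot exclude that the numbers pair the tumors. With a replicate block the counts were 1, 6, 6 and 7 for aPD1 against isotype and for aGMCSF, aIL2RB and both against aPD1, but for partly different genes. In that order Ccl8 (adjusted p = 0.0444) replaced Ccl7 (0.0508), Ccl4 (0.0374) replaced Ccl5 (0.122), Ccl12 (0.026) replaced Ccr2 (0.0737), and Ccl2 (0.0603) was lost. With the block 416 of all 16932 genes were called higher in the first comparison (1045 without it), and 1089 (1482), 2008 (2449) and 1141 (2419) were called lower in the others. Over the tested members, comparisons and alternatives there were 1412 adjusted p, of which 1317 kept their side of the threshold, 47 crossed to a call and 48 lost it. The lowest member count was 15 (Ccl4), and low counts limit the precision of Ccl3, Ccl4 and Ccl8. Their lowest levels (1.04, 0.899 and 1.03 CPM) were in later-set tumors with both blockades. The shallow replicate 4 of that group held 6.19, 7.11 and 19.5 CPM.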
